A study of Mus musculus with 35 samples.

Results

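The Rab GTPase genes encode small membrane-bound switch proteins that direct vesicle budding, transport, tethering and fusion, and each member sits on its own set of membranes. All mm10 protein-coding genes whose symbol is Rab followed by a number and an optional letter were taken, except Rab20 and Rab27b, which gives 57 of 21887 protein-coding genes. Their histone marks were read in lineage-negative hematopoietic stem and progenitor cells (HSPC) of bone marrow and in bone marrow neutrophils. H3K4me1 lies on enhancers and promoter flanks, H3K4me3 on promoters, and H3K27ac on active promoters and enhancers.

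Npm1c HSPC, Flt3-ITD HSPC, DM HSPC and WT neutrophils were each set against WT HSPC. All mice were C57BL/6. Npm1c is a nucleophosmin mutant that moves to the cytoplasm, and Flt3-ITD is an internal tandem duplication that activates the Flt3 receptor. DM is not written out in the labels and is taken here to carry Npm1c and Flt3-ITD together. Each group and mark had 2 libraries, called biological replicates in the series design; the sources used here do not state the alleles, promoters, ages or pooling of animals behind them. Commercial kits removed lineage-positive cells to give the HSPC and isolated the neutrophils, so the cells are bulk populations. In bulk cells, fewer cells of a type and less signal per cell cannot be told apart.

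Values after ± are the SD of 2 libraries. Values are kilobases (kb) of a gene window that lie under peaks. The window runs 10 kb beyond either end of the gene for H3K27ac and H3K4me1, and 5 kb beyond for H3K4me3. Many 10 kb windows also reach other protein-coding genes, so signal there cannot be given to the Rab gene alone. Examples are Traf7 at Rab26, Ccsap at Rab4a, Gcn1 and Bicdl1 at Rab35, and Tpm4 and Hsh2d at Rab8a. Further ones are Nup210l, Rps27 and Jtb at Rab13, Mex3a, Lamtor2 and Ubqln4 at Rab25, and Mrpl48 and Plekhb1 at Rab6a. Neighbours are named below only in part. Differences are given as log2(bp + 500), tested gene by gene with limma on all genes covered in at least 2 libraries of a mark, with Benjamini-Hochberg adjustment over all of them and a threshold of 0.05. The files hold peak positions without read counts, so depth is unknown. H3K4me1 and H3K4me3 peaks are mostly 1 kb wide, so their coverage moves in steps of about 1 peak. The spread of a gene is estimated over the 5 groups of a mark together. Where the 2 libraries of every group hold the same number of such peaks, the measured spread is 0. The adjusted p of a difference is then very small, and the peak counts themselves carry the result. H3K27ac lists covered from 13.5 Mb (DM replicate 2) to 23.9 Mb (Npm1c replicate 2), with 20.3 Mb in DM replicate 1.

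The labelled cell types were checked against marker genes by summed H3K27ac. Of 11 neutrophil markers 10 carried H3K27ac in both neutrophil libraries, with Ly6g at 0, and the summed level was 33.8 to 36.4 kb in neutrophils against 2.25 to 2.38 kb in WT HSPC. For 7 HSPC markers the sum was 3.75 to 4.42 kb in neutrophils, with Kit, Cd34, Flt3, Meis1 and Gata2 at 0, against 8.11 to 8.56 kb in WT HSPC. The mutant HSPC had sums of 31.4 to 36.8 kb (Npm1c), 16.4 to 21.3 kb (Flt3-ITD) and 12.9 to 21.3 kb (DM, Gata2 at 0) for the same 7 genes. Summed H3K27ac of 5 megakaryocyte markers was 1.89 to 2.11 kb in DM and 1.98 to 2.21 kb in neutrophils, against 4.83 to 6.82 kb in WT HSPC. For 3 dendritic cell markers the sum was 5.99 to 7.26 kb in Npm1c, 5.21 to 5.96 kb in Flt3-ITD, 4.34 to 7.59 kb in DM and 3.38 to 4.02 kb in neutrophils, against 3.45 to 3.61 kb in WT HSPC. The highest library sums were 3.84 kb (DM) for 4 B cell markers, 1.74 kb (Npm1c) for 6 eosinophil, basophil and mast cell markers and 0.44 kb (Flt3-ITD) for 4 T and NK cell markers. These shifts in cell-type markers run beside every result in mutant HSPC and neutrophils, and their part in those results was not tested.

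Rab proteins cycle between a GTP-bound form on membranes, loaded by exchange factors, and a GDP-bound form that activating proteins produce and chaperones keep soluble. In granulocytes, Rabs of the secretory group carry granules to the plasma membrane, and endosomal and lysosomal Rabs mature phagosomes. Rab27a is the best known of them, since it docks secretory granules in neutrophils, cytotoxic lymphocytes and platelets.

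Promoter sequences from RefSeq (GRCm38.p6, the assembly of mm10) are shown for 5 genes because the presence of H3K4me3 or H3K27ac at or between their listed starts differed between the groups. RefSeq listed 59 promoters for 47 of the 57 genes. Capitals mark matches, on either strand, to any of 6 motifs searched. The PU.1 motif was GAGGAAGT and the RUNX motif was ACCACA. For GATA factors the letters were AGATAA, and those for C/EBP were TTGCNNAA. An E-box was read as CACGTG, while the general motif of ETS factors was read as CGGAAG; none of these is part of another.
Rab27a, first start, chr9:73044560-73044859, plus strand: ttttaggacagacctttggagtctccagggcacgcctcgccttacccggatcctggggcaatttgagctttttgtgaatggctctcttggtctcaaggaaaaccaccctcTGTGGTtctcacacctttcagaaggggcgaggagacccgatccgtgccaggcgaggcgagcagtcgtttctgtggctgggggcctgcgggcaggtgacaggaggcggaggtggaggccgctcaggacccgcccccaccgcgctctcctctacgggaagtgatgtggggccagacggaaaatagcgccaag
Rab27a, second start, chr9:73063898-73064197, plus strand: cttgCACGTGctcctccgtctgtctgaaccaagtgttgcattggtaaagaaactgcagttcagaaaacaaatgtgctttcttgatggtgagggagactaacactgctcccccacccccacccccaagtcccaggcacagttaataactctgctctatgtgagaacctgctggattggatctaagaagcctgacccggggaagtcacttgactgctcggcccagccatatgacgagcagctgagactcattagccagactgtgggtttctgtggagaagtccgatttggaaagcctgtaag
Rab15, shared start, chr12:76822475-76822774, minus strand: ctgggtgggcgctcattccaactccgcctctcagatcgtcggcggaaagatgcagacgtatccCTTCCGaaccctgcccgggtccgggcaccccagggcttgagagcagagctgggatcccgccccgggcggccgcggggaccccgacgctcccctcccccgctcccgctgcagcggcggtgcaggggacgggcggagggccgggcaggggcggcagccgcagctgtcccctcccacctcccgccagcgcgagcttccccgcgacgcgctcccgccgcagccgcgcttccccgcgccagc
Rab15, start with the neutrophil peak, chr12:76813807-76814106, minus strand: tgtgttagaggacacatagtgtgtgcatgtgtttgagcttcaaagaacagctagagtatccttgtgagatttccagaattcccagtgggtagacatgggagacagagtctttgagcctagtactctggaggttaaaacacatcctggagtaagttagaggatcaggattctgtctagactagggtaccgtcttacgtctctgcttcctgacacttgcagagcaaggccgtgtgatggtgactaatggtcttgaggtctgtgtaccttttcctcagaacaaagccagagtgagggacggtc
Rab39b, chrX:75578182-75578481, minus strand: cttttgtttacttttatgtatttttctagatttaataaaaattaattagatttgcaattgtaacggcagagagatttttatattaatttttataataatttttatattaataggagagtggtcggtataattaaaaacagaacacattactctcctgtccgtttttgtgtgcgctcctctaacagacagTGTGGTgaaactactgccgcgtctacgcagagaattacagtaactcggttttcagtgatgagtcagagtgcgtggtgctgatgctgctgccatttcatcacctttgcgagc
Rab6b, chr9:103111824-103112123, plus strand: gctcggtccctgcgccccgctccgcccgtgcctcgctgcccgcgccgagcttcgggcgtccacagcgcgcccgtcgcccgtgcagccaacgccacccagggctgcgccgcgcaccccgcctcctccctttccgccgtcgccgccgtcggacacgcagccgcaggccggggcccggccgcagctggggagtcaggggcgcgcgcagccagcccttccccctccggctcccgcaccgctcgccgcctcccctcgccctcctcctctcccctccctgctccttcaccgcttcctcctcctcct
Rab19, chr6:39381103-39381402, plus strand: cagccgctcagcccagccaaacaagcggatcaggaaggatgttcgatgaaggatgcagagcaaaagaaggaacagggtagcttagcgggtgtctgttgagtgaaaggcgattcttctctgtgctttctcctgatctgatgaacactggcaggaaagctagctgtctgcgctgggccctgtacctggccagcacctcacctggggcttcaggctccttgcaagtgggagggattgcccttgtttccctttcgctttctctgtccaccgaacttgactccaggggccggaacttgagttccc

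Neutrophils carried 5 separate H3K4me3 regions in the stretch between the 2 listed Rab27a starts, from chr9:73051551 to 73061358, and none of the 8 HSPC libraries had any of them. At Rab15, which acts in endosomal recycling, both neutrophil libraries had an H3K4me3 peak over the start at chr12:76813856 and no HSPC library had one, while the start at chr12:76822524 was covered in all 10 libraries. The start of Rab39b, a neuronal Rab, lay under H3K4me3 in all 8 HSPC libraries and in neither neutrophil library. The starts of Rab6b and Rab19 are shown for H3K27ac peaks that appeared in mutant HSPC and are described with those cells. A motif match here is a description of the letters only. The 59 promoters held a RUNX match in 16.9%, an ETS match in 28.8%, an E-box in 8.5%, a C/EBP match in 6.8%, and GATA and PU.1 matches in 3.4% each. Among all 21263 listed promoters the shares were 15.0% (RUNX), 21.1% (ETS), 7.8% (E-box), 10.2% (C/EBP), 9.7% (GATA) and 3.1% (PU.1). Rab promoters had a median of 20 CpG dinucleotides against 13 over all promoters, and a median GC content of 61.0% against 56.3%.

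Most Rab genes were marked in every cell group. H3K27ac was present in all 10 libraries at 46 of the 57 genes (80.7%, against 47.9% of all protein-coding genes), H3K4me1 at 54 (94.7% against 69.2%) and H3K4me3 at 53 (93.0% against 64.8%). No Rab gene lacked all 3 marks. The 6 genes without H3K27ac in any library were Rab3b and Rab3c, both of regulated secretion and best known in neurons, Rab15 and Rab17 of the recycling group, Rab9b of the late endosome and Rab39b. Rab39 had H3K27ac in DM replicate 1 alone (0.660 kb). In all, 50 Rab genes were tested for H3K27ac, 56 for H3K4me1 and 57 for H3K4me3.

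**Figure D1:**
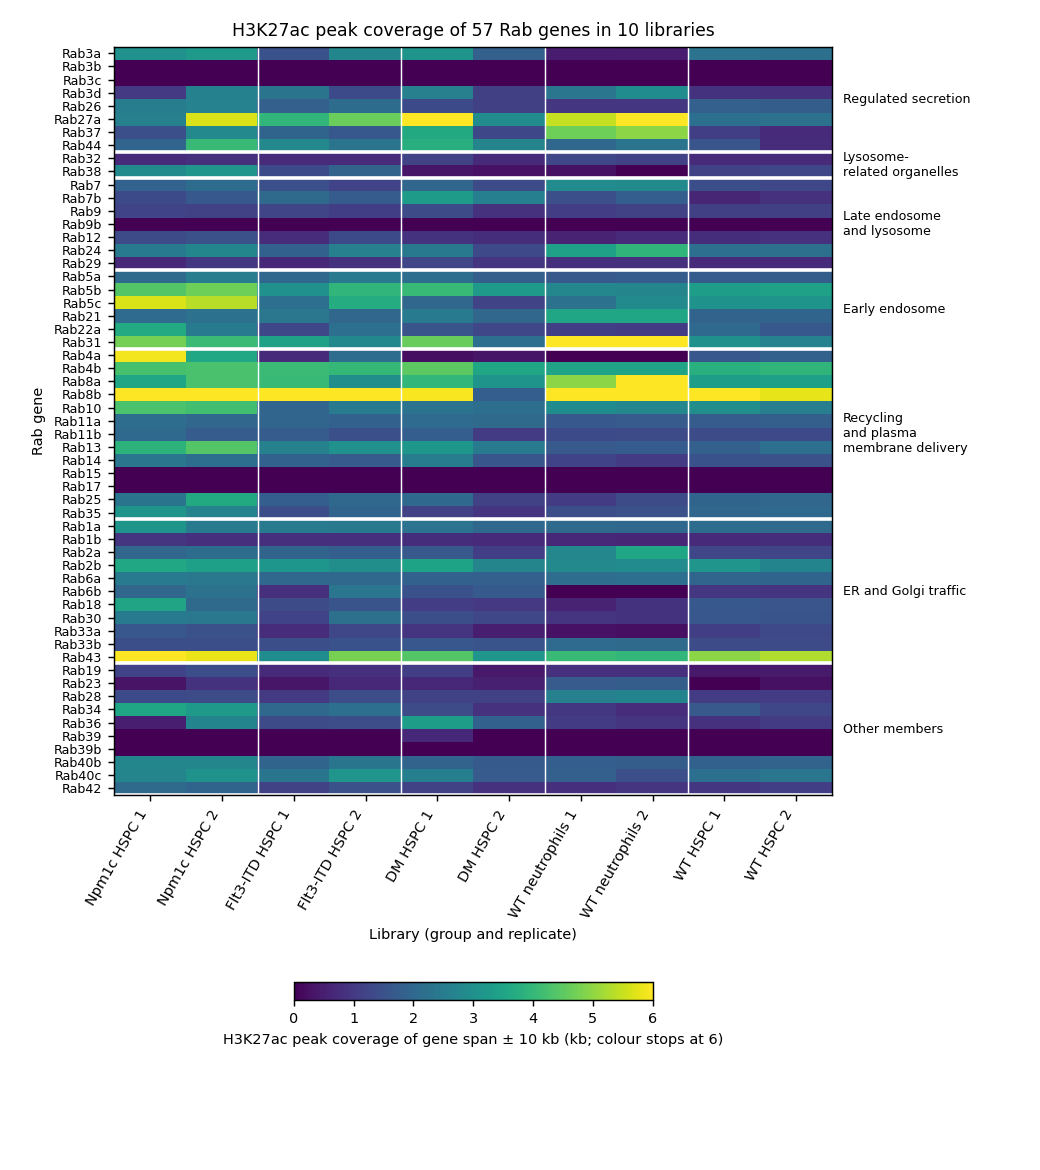
H3K27ac coverage in kb (colour, stopping at 6) of each Rab gene window (rows, grouped by the main role of the protein) in each of the 10 libraries (columns). Most rows keep a similar colour across the columns; Rab31 and Rab37 are brighter in both neutrophil columns, Rab4a and Rab38 are dark in DM and neutrophils, and 6 rows are at 0 throughout.

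In neutrophils, Rab genes changed in both directions. H3K27ac rose at 10 and fell at 8 of the 50 Rab genes tested, beside 13.2% higher and 23.2% lower of all genes tested; the median difference was -0.03 for the Rab genes and -0.12 for all genes. H3K4me1 rose at 3 and fell at 9 of 56 (all genes 4.67% higher and 18.6% lower), and H3K4me3 rose at 10 and fell at 6 of 57 (all genes 6.72% and 9.88%). With each library centred on its own median the splits were 16 higher and 8 lower for H3K27ac, 6 and 7 for H3K4me1 and 10 and 3 for H3K4me3. All genes were then 20.4% higher and 20.9% lower, 7.99% and 17.1%, and 9.4% and 6.06%, in the same order of marks. Of the 57 genes, 31 passed in at least 1 mark and 12 in at least 2, and Rab4a, Rab18 and Rab28 passed in all 3. The matching shares over all genes were not counted, so these numbers describe the members only. Without any 1 of the neutrophil or WT HSPC libraries, fewer Rab genes passed in H3K27ac and H3K4me1, and fewer of all genes did as well. Among 251 H3K27ac regions in the Rab windows, 44 were present in both neutrophil libraries and in neither WT HSPC library, beside 16.3% of all 48381 regions, and 26 were the reverse, beside 9.22% of all.

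**Figure D2:**
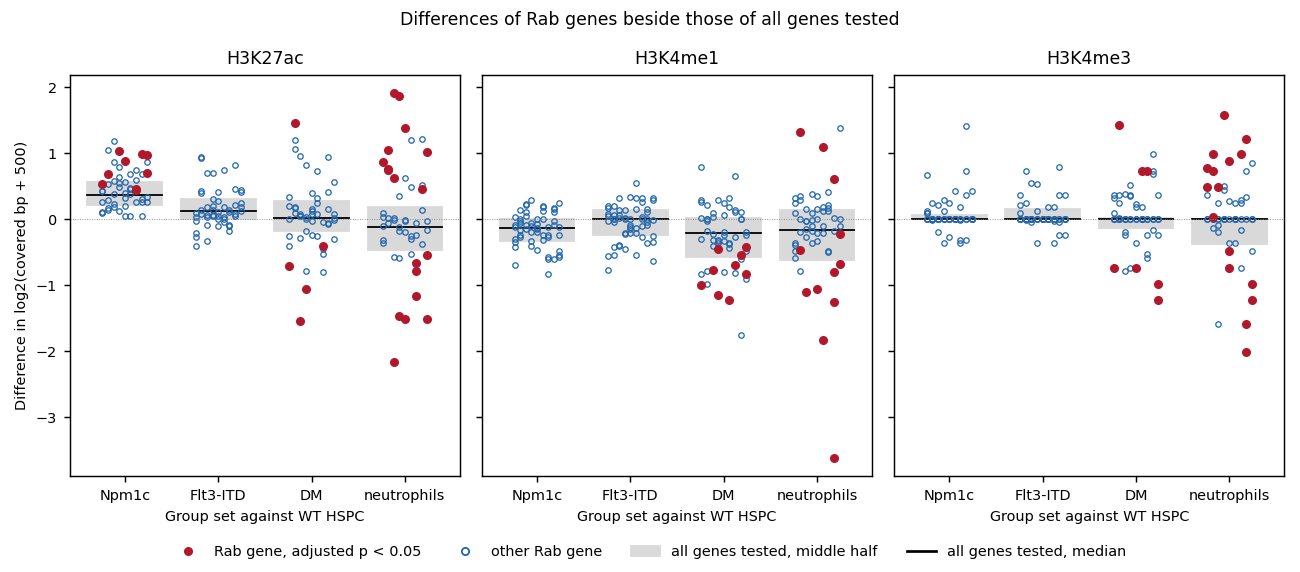
Difference of each Rab gene in log2(covered bp + 500) between Npm1c HSPC, Flt3-ITD HSPC, DM HSPC or WT neutrophils and WT HSPC, for each mark; filled points passed the limma test, grey bands span the interquartile range of all genes tested and lines are their medians. Filled points lie on both sides of 0 in neutrophils, all above 0 for Npm1c H3K27ac and all below 0 for DM H3K4me1.

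Of 6 regulated secretion genes tested for H3K27ac in neutrophils 1 rose and 2 fell, and their median was 0.96; for H3K4me3, 3 of 8 rose and 0 fell. All genes tested were 13.2% higher and 23.2% lower for H3K27ac and 6.72% and 9.88% for H3K4me3, and counts in such small groups describe their members only. Rab37, a secretory granule Rab of mast cells, had 4.67 and 4.95 kb of H3K27ac in neutrophils, against 1.12 and 0.727 kb in WT HSPC. The groups did not overlap, and the difference was 1.92 (SE 0.395; limma, Benjamini-Hochberg adjusted p = 0.00846). Its H3K4me3 was 10 and 11 kb in neutrophils against 5 and 6 kb in WT HSPC (0.88; adjusted p = 0.0153). The Rab37 window also holds Slc9a3r1 and Cd300lf, a myeloid receptor gene, and 4 of the 7 H3K27ac regions gained in neutrophils lie over both Rab37 and Cd300lf, so signal of the 2 genes cannot be told apart there.

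Rab27a had 11.4 kb of H3K4me3 in each neutrophil library, against 6.47 and 6.43 kb in WT HSPC. Other HSPC libraries lay between 6.38 and 7.45 kb, so neutrophils stood apart from all 8 HSPC libraries (0.78, SE 0.104; adjusted p = 0.00485). The extra coverage is the 5 regions between the printed starts. H3K27ac at Rab27a was 5.47 and 6.22 kb in neutrophils against 2.19 and 2.25 kb in WT HSPC; the groups did not overlap, but the difference of 1.22 did not pass (adjusted p = 0.0587), and passed with each library centred (1.35, adjusted p = 0.0105) or at equal list lengths (0.0485). DM replicates had 7.47 and 2.89 kb there, both above WT HSPC, and the window also holds Pigb and Pigbos1.

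Rab3d, a granule Rab of exocrine and mast cells, had 2.35 and 2.93 kb of H3K27ac in neutrophils against 0.890 and 0.827 kb in WT HSPC (1.2; adjusted p = 0.0557). Rab44, an atypical Rab of mast cell granules, had 2.02 and 2.3 kb against 1.57 and 0.750 kb (0.72; adjusted p = 0.131). Neither passed, although neither pair of groups overlapped, and both passed with each library centred (Rab3d 0.0153, Rab44 0.0461). Rab3a, the synaptic vesicle Rab, fell to 0.484 and 0.458 kb in neutrophils, against 2.29 and 2.22 kb in WT HSPC (-1.51, SE 0.258; adjusted p = 0.00416). The Rab3a window also holds Pde4c, Mpv17l2, Ifi30 and Pik3r2, and 1 of the 3 regions lost lies over Ifi30. Rab26, linked to secretory granule maturation, fell by 0.66 (0.947 and 0.953 kb against 1.83 and 1.76 kb; adjusted p = 0.00296).

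Of 6 early endosome genes 2 rose and 0 fell in H3K27ac (median -0.13), and of 6 late endosome and lysosome genes tested 2 rose and 0 fell (median 0.36), beside 13.2% higher and 23.2% lower of all genes. Rab31, which moves cargo between the Golgi and endosomes, had 8.01 and 8.42 kb in neutrophils against 3.0 and 2.67 kb in WT HSPC. Every other library held at most 4.75 kb, and the difference was 1.39 (SE 0.269; adjusted p = 0.00672). Neutrophils gained regions well inside Rab31, among them chr17:65736548-65738187, 35.4 kb from the nearest listed start, and lost 3 regions toward the end of the gene away from the start (chr17:65655697-65656568, chr17:65663509-65664065 and chr17:65664147-65664684) that both WT HSPC libraries had. DM lost the same 3 regions.

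Rab7, which drives late endosomes and phagosomes to fuse with lysosomes, had 2.90 and 2.86 kb of H3K27ac in neutrophils against 1.44 and 1.29 kb in WT HSPC (0.86, SE 0.149; adjusted p = 0.00433), but over the Rab7 span alone the difference did not pass (adjusted p = 0.968). Rab7b, which returns cargo from late endosomes to the Golgi, had 1.45 and 1.80 kb against 0.648 and 0.851 kb (0.77; adjusted p = 0.00949), and its H3K4me3 was 3 kb in both neutrophil libraries against 1 kb in both WT HSPC libraries (1.22; adjusted p = 0.0176). Rab21, an early endosome Rab that binds integrins, rose by 0.74 (3.55 and 3.54 kb against 1.92 and 1.93 kb). All libraries of the 2 groups were separate for these 3 genes. Rab5b had less H3K4me1 (6.47 ± 0.670 against 9.17 ± 0.238 kb; -0.47, adjusted p = 0.0112) and 1 more H3K4me3 peak (3 against 2 in each library). Rab22a lost H3K4me1 (4 and 7 kb against 12 and 11.2 kb; -1.06, adjusted p = 0.0218).

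Of 11 endoplasmic reticulum and Golgi genes 2 rose and 3 fell in H3K27ac, and of 11 recycling genes tested 1 rose and 1 fell, beside the same 13.2% and 23.2% of all genes. Rab2a, which works between the endoplasmic reticulum and the Golgi, had 4 H3K4me3 peaks in each neutrophil library, against 1 in each WT HSPC library (1.58, SE 0.225; adjusted p = 0.00602). Its H3K27ac was 2.79 and 3.53 kb in neutrophils against 1.27 and 1.25 kb in WT HSPC (1.05, SE 0.158; adjusted p = 0.00254), with a gained region at chr4:8560261-8561318 that overlaps one of the new H3K4me3 sites. Rab28, linked to cilia and photoreceptor turnover, had 2.60 and 2.71 kb of H3K27ac against 1.06 and 1.07 kb (1.01, SE 0.122; adjusted p = 0.00108). The 2 gained Rab28 regions, chr5:41626909-41627571 and chr5:41627772-41628530, overlap a gained H3K4me3 region 80.6 kb from the listed start. H3K4me1 at Rab28 rose as well (8.87 and 9.95 kb against 3 and 4 kb; 1.32, adjusted p = 0.0352).

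Rab23, a negative regulator of Hedgehog signalling, had 1.73 and 1.78 kb of H3K27ac in neutrophils, against 0 and 0.266 kb in WT HSPC (1.86, SE 0.300; adjusted p = 0.0032). Most of it is the region chr1:33738232-33739526, which held 1181 and 1258 bp in neutrophils, 200 bp in Npm1c replicate 2 and 0 in the other libraries. Rab8a, an exocytic Rab, had 4.95 and 6.06 kb against 3.33 and 3.39 kb of H3K27ac (0.63; adjusted p = 0.0293) and 10.7 and 13.7 kb against 7.71 and 7.70 kb of H3K4me1 (0.62; adjusted p = 0.0468). Rab33b, a Golgi and autophagy Rab, rose by 0.46 in H3K27ac (2.08 ± 0.0255 against 1.38 ± 0.0106 kb; adjusted p = 0.00546), but over the Rab33b span alone the difference was -0.07 and did not pass.

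**Figure D3:**
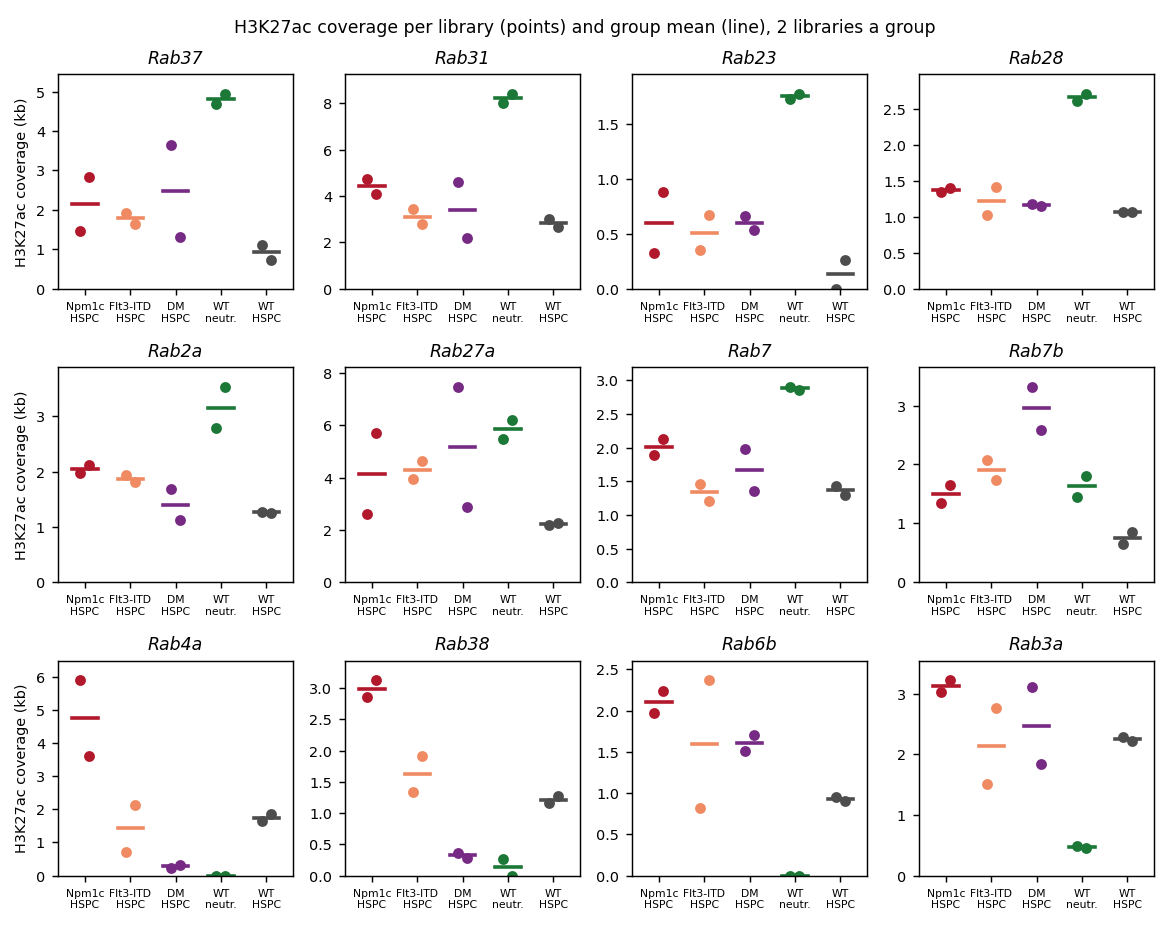
H3K27ac coverage in kb of 12 Rab genes in each library (points; lines are means of 2 libraries), with Npm1c, Flt3-ITD and DM HSPC and neutrophils to the left of WT HSPC. Rab37, Rab31, Rab23, Rab28, Rab2a and Rab7 are highest in both neutrophil libraries, and Rab4a and Rab6b are at 0 there.

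Rab4a and Rab38 lost most of their H3K27ac and H3K4me1 in neutrophils. Rab4a, which returns receptors quickly from early endosomes to the surface, had no H3K27ac in either neutrophil library, against 1.64 and 1.86 kb in WT HSPC (adjusted p = 0.00349). H3K4me1 at Rab4a was 1 and 0 kb in neutrophils against 9.82 and 10.5 kb in WT HSPC (-3.62, SE 0.465; adjusted p = 0.00356), and H3K4me3 was 1 peak in each neutrophil library against 2 and 3 (-0.98; adjusted p = 0.0194). The Rab4a value is the largest H3K4me1 fall among the Rab genes. Rab38, which sorts cargo to melanosomes and platelet dense granules, had 0.271 and 0 kb of H3K27ac against 1.16 and 1.27 kb (-1.46; adjusted p = 0.00251), and 4 kb of H3K4me1 in both neutrophil libraries against 16 and 15 kb (-1.83, SE 0.198; adjusted p = 0.00183). Rab32, its close relative, did not pass (1.28 and 1.18 kb against 0.724 and 0.748 kb of H3K27ac; 0.49, adjusted p = 0.0543), but did with each library centred (0.00384).

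**Figure D4:**
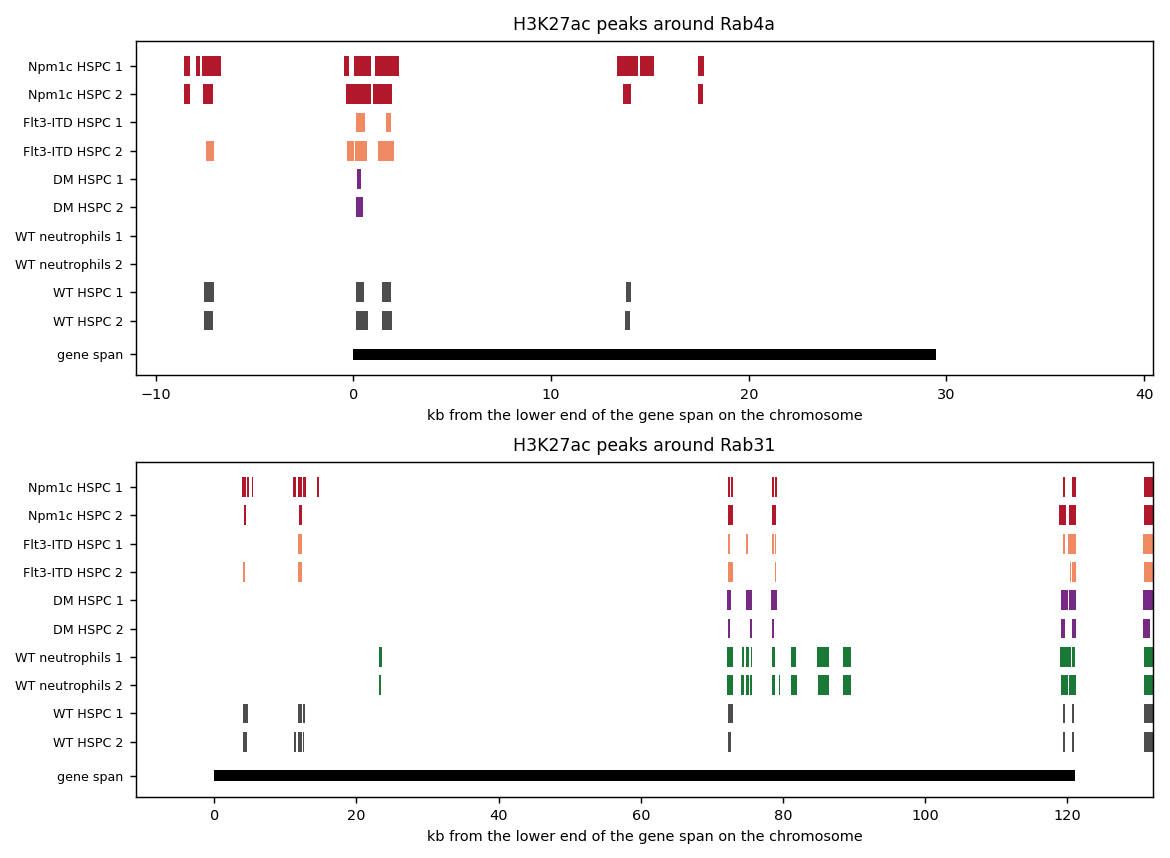
H3K27ac peaks (boxes) around Rab4a and Rab31 in each library, by distance in kb from the lower end of the gene span (black bar). Rab4a has peaks in all HSPC groups, a narrow one in DM and none in neutrophils; neutrophils have extra peaks in the upper part of Rab31, toward its start.

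Rab6b, a brain-enriched Golgi Rab, had no H3K27ac in neutrophils against 0.954 and 0.909 kb in WT HSPC (adjusted p = 0.00829). Rab33a fell by 1.16 (0.287 and 0.245 kb against 1.12 and 1.32 kb; adjusted p = 0.00521), but the single H3K27ac region of its window lies at the start of the neighbouring Aifm1. Rab18, which acts on lipid droplets and the endoplasmic reticulum, fell in H3K27ac (0.598 and 0.872 kb against 1.65 and 1.59 kb; -0.79, adjusted p = 0.0224), in H3K4me1 (4.5 ± 0.707 against 7.5 ± 0.707 kb; -0.68) and in H3K4me3, with 1 peak in each neutrophil library against 3 in each WT HSPC library. Rab34, linked to cilia and lysosome position, fell by 0.54 in H3K27ac (adjusted p = 0.0481), and its H3K4me3 call rests on a difference of 0.04, under 500 bp.

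Among genes without H3K27ac, H3K4me3 still differed. Rab17, which acts in epithelial transcytosis, had no H3K4me3 in neutrophils against 1 and 2.23 kb in WT HSPC (adjusted p = 0.00512), and H3K4me1 of 1 kb in both against 3 and 3.13 kb (-1.25; adjusted p = 4.34e-05). Its window reaches Mlph, itself a Rab27a effector gene. Rab39b had 1 H3K4me3 peak in each of the 8 HSPC libraries and 0 in both neutrophil libraries. Rab9b had the same pattern apart from DM replicate 1, which was at 0 (adjusted p = 0.0878 for neutrophils against WT HSPC). Rab3c gained H3K4me3 in neutrophils (2 and 3 kb against 1 kb in both WT HSPC libraries; 0.98, adjusted p = 0.00784), as did Rab15 (3 and 2 against 1 and 1 kb; 0.98, adjusted p = 0.00784). Rab40b and Rab25, which did carry H3K27ac in all 10 libraries, lost H3K4me1. Rab40b had 3.5 ± 0.707 against 8 kb (-1.10) and Rab25 had 4.07 ± 0.0997 against 7.5 ± 0.707 kb (-0.81).

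The remaining members that the naming rule takes for roles in granulocytes and platelets did not pass in H3K27ac in neutrophils. They included Rab5a of early endosomes (1.68 and 1.75 kb against 1.75 and 1.76 kb) and Rab11a of recycling endosomes (1.64 and 1.72 against 1.75 and 1.82 kb). Rab1a of the Golgi had 2.07 and 2.02 against 2.12 and 2.08 kb. Rab10 had 2.91 and 2.78 against 2.97 and 2.57 kb, and Rab6a 2.15 and 2.20 against 1.96 and 1.92 kb. Rab14, which acts on phagosomes, had 1.21 and 1.05 kb against 1.52 and 1.5 kb (adjusted p = 0.193).

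In neutrophils, 19 calls were kept without each of the 4 libraries and in every setting tried. They were the H3K27ac calls at Rab21, Rab23, Rab26, Rab28, Rab2a, Rab38, Rab3a and Rab4a, the H3K4me1 calls at Rab17, Rab25, Rab38 and Rab4a, and the H3K4me3 calls at Rab15, Rab17, Rab27a, Rab28, Rab2a, Rab39b and Rab3c. The other calls ended in at least 1 alternative and are given with the highest adjusted p over all alternatives. For H3K27ac, Rab37 (0.0756) and Rab31 (0.0636) ended without either neutrophil library, Rab37 also without WT HSPC replicate 2, Rab33a without neutrophil replicate 2 (0.0526), Rab7b without neutrophil replicate 2 or WT HSPC replicate 1 (0.0811) and Rab6b without either neutrophil library or WT HSPC replicate 1 (0.214). Rab8a (0.179), Rab18 (0.861) and Rab34 (0.251) ended without any 1 of the 4 libraries, and over the gene span alone Rab7, Rab33b, Rab8a, Rab18 and Rab6b ended. For H3K4me1, Rab23 (0.532), Rab28 (0.156) and Rab8a (0.187) ended without any 1 of the 4 libraries, Rab22a without either WT HSPC library (0.0998), Rab18 without neutrophil replicate 2 or either WT HSPC library (0.112), Rab8b without either neutrophil library or WT HSPC replicate 1 (0.673), Rab5b without WT HSPC replicate 2 (0.162) and Rab40b without neutrophil replicate 1 or either WT HSPC library (0.0672). For H3K4me3, Rab7b (0.0915), Rab10 (0.161) and Rab40c (0.816) ended without any 1 of the 4 libraries, Rab37 without either neutrophil library or WT HSPC replicate 1 (0.093) and Rab4a without either neutrophil library (0.393), and centring ended Rab4a, Rab10, Rab40c, Rab34, Rab5b (0.125), Rab18 (0.126) and Rab6a (0.443).

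**Figure D5:**
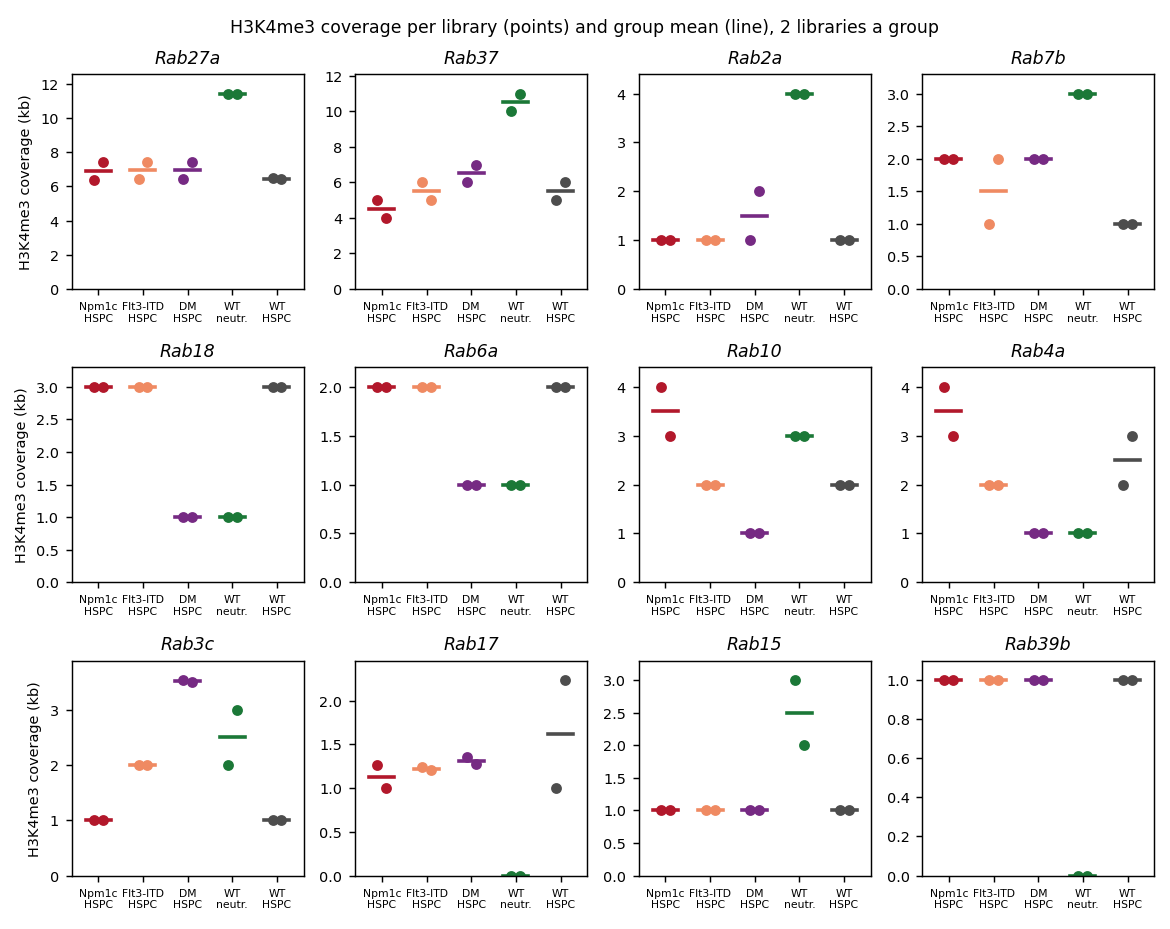
H3K4me3 coverage in kb of 12 Rab genes in each library (points; lines are means of 2 libraries), in the same order of groups. Neutrophils are above all HSPC libraries at Rab27a, Rab37, Rab2a and Rab7b; DM and neutrophils sit together at 1 kb at Rab18, Rab6a and Rab4a, and DM is highest at Rab3c.

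In DM HSPC, H3K4me1 fell at 9 and rose at 0 of 56 Rab genes, and 47 did not pass. The share that fell was close to that of all genes tested (16.2% lower and 1.91% higher). The median was -0.28 for the Rab genes and -0.21 for all genes. An unadjusted limma p under 0.05 was reached at 18 of the 56 Rab genes, all lower, beside 5810 of all 17381 genes tested. H3K27ac rose at 1 and fell at 4 of 50 (6.94% higher and 6.04% lower of all genes), and H3K4me3 rose at 3 and fell at 4 of 57 (4.47% and 3.7%). Centring gave 3 higher and 6 lower for H3K27ac, 0 and 6 for H3K4me1 and 1 and 1 for H3K4me3. All genes were then 11.4% higher and 11.2% lower, 5.91% and 8.29%, and 2.15% and 2.73%, in the same order of marks. Of the 57 genes 16 passed in at least 1 mark, and Rab10, Rab18, Rab38, Rab4a and Rab6a in 2. Here too the matching shares over all genes were not counted. The H3K27ac calls depended on the libraries used, and fewer were left without either WT HSPC library, at Rab genes and over all genes. Without DM replicate 2 they were mostly higher, with Rab27a at 1.55, and the all-gene median moved from 0.02 to 0.14. Without DM replicate 1 that median was -0.07. Among the 251 H3K27ac regions 12 were gained in DM and 18 lost, beside 7.53% and 6.55% of all regions. For H3K4me1, fewer Rab genes passed without any 1 of the DM or WT HSPC libraries, and fewer of all genes did as well.

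Rab4a and Rab38 had the largest H3K27ac falls among the Rab calls in DM. Rab4a had 0.220 and 0.333 kb in DM, against 1.64 and 1.86 kb in WT HSPC (-1.54, SE 0.356; adjusted p = 0.0317). H3K4me3 at Rab4a was 1 peak in each DM library against 2 and 3 in WT HSPC (-0.98; adjusted p = 0.0347), with the site chr8:123819378-123820657 missing in DM and in neutrophils. H3K4me1 at Rab4a was 2.83 and 2.48 kb in DM against 9.82 and 10.5 kb in WT HSPC, and 5 of its 12 regions were lost; the groups did not overlap, and the difference of -1.76 did not pass (adjusted p = 0.0514), and passed with each library centred (0.028) or a pseudocount of 2000 bp (0.00474). Rab38 fell to 0.364 and 0.288 kb of H3K27ac in DM, against 1.16 and 1.27 kb in WT HSPC (-1.05, SE 0.220; adjusted p = 0.0233), and to 8 and 5 kb of H3K4me1 against 16 and 15 kb (-1.23, SE 0.198; adjusted p = 0.0107). The region chr7:88481884-88482910, inside Rab38, had H3K27ac in both WT HSPC libraries and in neither DM library.

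Rab6a, the main retrograde Golgi Rab, and Rab10, which delivers vesicles to the plasma membrane, lost H3K4me1 in DM. Rab6a had 4 kb in both DM libraries against 9.38 and 9.66 kb in WT HSPC (-1.16, SE 0.078; adjusted p = 0.000426), while all 6 other libraries of mutant HSPC and neutrophils had 7.82 to 10.7 kb. Its H3K4me3 region chr7:100615972-100617268, 9.03 kb from the start, was absent in both DM libraries and both neutrophil libraries. Rab10 had 8 and 10.1 kb of H3K4me1 in DM against 19 and 18 kb in WT HSPC (-1, SE 0.173; adjusted p = 0.0133), and 1 H3K4me3 peak in each DM library against 2. In neutrophils Rab10 had 3 H3K4me3 peaks per library. H3K4me1 in DM also fell at Rab18 (4 kb in both against 7 and 8 kb; -0.83, adjusted p = 0.0143), Rab31 (18 and 23 against 31 and 36 kb; -0.70, adjusted p = 0.0464), Rab40b (-0.77), Rab25 (-0.54), Rab21 (-0.45) and Rab8b (-0.42). Rab18 kept 1 of its 3 H3K4me3 peaks in each DM library, while the WT HSPC, Npm1c and Flt3-ITD libraries had 3 each.

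Rab7b rose in DM. It had 3.32 and 2.59 kb of H3K27ac in DM, against 0.648 and 0.851 kb in WT HSPC (1.46, SE 0.163; adjusted p = 0.00309), and 2 regions, chr1:131680009-131680381 and chr1:131691812-131692172, were present in both DM libraries and in neither WT HSPC library. The lowest value of Rab7b in any mutant HSPC or neutrophil library, 1.35 kb, was above both WT HSPC libraries. Rab35, which controls endosomal recycling and cytokinesis, fell (1.17 and 0.927 kb against 1.98 and 2.06 kb; -0.71, SE 0.138, adjusted p = 0.0187), as did Rab26 (-0.41; adjusted p = 0.0433). Rab44 had 3.77 and 2.74 kb in DM against 1.57 and 0.750 kb in WT HSPC without passing (1.21; adjusted p = 0.0555), and passed with each library centred (0.0238). H3K4me3 rose at Rab3c (3.54 and 3.51 kb against 1 kb in both; 1.42, SE 0.148, adjusted p = 0.00273) and, by 1 peak in each library, at Rab30, a Golgi Rab, and Rab39, a phagosome Rab.

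The DM calls kept without each of the 4 libraries and in every setting were those at Rab7b (H3K27ac), Rab6a (H3K4me1), and Rab18 and Rab3c (H3K4me3). The H3K27ac calls at Rab4a and Rab38 ended without any 1 of the 4 libraries (highest adjusted p = 0.168 and 0.14), that at Rab35 without either WT HSPC library (0.126) and that at Rab26 without DM replicate 2 or either WT HSPC library (0.236). For H3K4me1, Rab31 (0.207), Rab40b (0.193) and Rab21 (0.586) ended without any 1 of the 4, Rab38 without either WT HSPC library (0.0592), Rab10 without DM replicate 1 or either WT HSPC library (0.0679), and Rab18 without either DM library or WT HSPC replicate 2 (0.0821). The H3K4me3 calls at Rab10 (0.402) and Rab4a (0.151) ended without either DM library, among others, and centring ended those at Rab6a, Rab30, Rab39, Rab10 and Rab4a and the H3K4me1 calls at Rab25 and Rab8b.

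In Npm1c HSPC, H3K27ac rose broadly over the genome, Rab genes included. It rose at 9 and fell at 0 of 50 Rab genes (17.7% higher and 0.022% lower of all genes tested). The median was 0.45 for the Rab genes and 0.36 for all genes. An unadjusted limma p under 0.05 was reached at 26 of the 50 Rab genes, all higher, beside 5713 of all 13637 genes tested. When each library was centred on its median, which moved the all-gene median to -0.03, no Rab gene passed. Fewer Rab genes passed without any 1 of the Npm1c or WT HSPC libraries, and fewer of all genes did as well. Of the 251 H3K27ac regions in the Rab windows, 22 were gained and 0 lost, beside 7.9% and 0.196% of all regions.

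Rab38 had 2.86 and 3.12 kb of H3K27ac in Npm1c, against 1.16 and 1.27 kb in WT HSPC (1.03, SE 0.220; adjusted p = 0.0281), the opposite side from DM. Rab13, of recycling and cell junctions, had 3.87 and 4.38 kb against 1.84 and 2.19 kb (0.88, SE 0.135; adjusted p = 0.0173), and the region chr3:90220470-90221002 over one of its listed starts was gained in Npm1c and DM and also present in Flt3-ITD replicate 2. Rab19 had 1.21 and 1.44 kb against 0.405 and 0.430 kb (0.99, SE 0.242; adjusted p = 0.0364). The printed Rab19 promoter lies within a region, chr6:39381034-39381693, gained in Npm1c alone among the 4 comparisons. The printed Rab6b start lies in chr9:103111341-103112325, gained in Npm1c and DM and also present in Flt3-ITD replicate 2 (772 bp), although Rab6b itself did not pass in either. Rab34 rose by 0.97 (3.38 ± 0.203 against 1.49 ± 0.279 kb; adjusted p = 0.0212), and its window also holds Tlcd1, Rpl23a and Proca1. The others were Rab42 (0.71), Rab7b (0.68), Rab10 (0.54), Rab40b (0.45) and Rab26 (0.44). Rab4a had 5.89 and 3.60 kb in Npm1c against 1.64 and 1.86 kb without passing (1.19; adjusted p = 0.0561). H3K4me1 and H3K4me3 passed at 0 Rab genes in Npm1c (0.334% and 1.37% of all genes), with unadjusted p under 0.05 at 7 and 3. For H3K4me1 1480 of all 17381 genes tested had such a p, and the all-gene number for H3K4me3 is not given.

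In Flt3-ITD HSPC no Rab gene passed limma's test in any mark (all genes 0.103% for H3K27ac, 1.7% for H3K4me1 and 2.73% for H3K4me3). An unadjusted p under 0.05 was reached at 4 Rab genes for H3K27ac, all higher, at 6 for H3K4me1, all lower, and at 3 for H3K4me3, all higher. Among all genes tested it was reached at 2096 of 13637 for H3K27ac and 2249 of 17381 for H3K4me1, and the all-gene number for H3K4me3 is not given. Flt3-ITD gained 9 and lost 4 of the 251 H3K27ac regions, beside 4.43% and 2.42% of all regions. The Rab median of 0.11 in H3K27ac stood beside 0.12 for all genes. Rab7b again lay above WT HSPC (2.08 and 1.74 kb against 0.648 and 0.851 kb), and Rab27a had 3.96 and 4.64 kb against 2.19 and 2.25 kb. Neither passed (adjusted p = 0.0848 and 0.421); Rab7b passed with each library centred (0.0419).

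Whether the effect of the 2 mutations together equalled the sum of their separate effects was tested as an interaction, DM - Npm1c - Flt3-ITD + WT HSPC on the log2 scale. For H3K27ac it was negative at 10 and positive at 0 of 50 Rab genes (17.5% and 0.462% of all genes), with a median of -0.55 for the Rab genes and -0.46 for all genes. H3K4me1 had 0 positive and 2 negative calls (0.869% and 2.48%) and H3K4me3 2 positive and 3 negative (1.96% and 3.78%). After centring, which moved the all-gene median of the H3K27ac interaction to 0.04, 2 Rab calls were left for H3K27ac, 1 for H3K4me1 and 0 for H3K4me3. All genes were then 1.44% positive and 2.71% negative for H3K27ac, 0.19% and 1.17% for H3K4me1 and 0.211% and 0.0806% for H3K4me3. Without centring, the H3K27ac interaction calls depended on the libraries used. Fewer were left without either WT HSPC library, at Rab genes and over all genes. More Rab genes passed without DM replicate 1, and fewer without DM replicate 2, Npm1c replicate 1 or Flt3-ITD replicate 2. The all-gene median moved as well, to -0.61 without DM replicate 1 and -0.31 without DM replicate 2.

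The proteins that load, unload and read Rabs were described from a list of 92 genes. In neutrophils H3K27ac rose at 16 and fell at 14 of 87 tested (13.2% higher and 23.2% lower of all genes), H3K4me1 rose at 1 and fell at 23 of 92 (4.67% and 18.6%), and H3K4me3 rose at 12 and fell at 5 of 92 (6.72% and 9.88%). Centring gave 27 higher and 11 lower for H3K27ac, 6 and 21 for H3K4me1 and 18 and 3 for H3K4me3. All genes were then 20.4% higher and 20.9% lower, 7.99% and 17.1%, and 9.4% and 6.06%, in the same order of marks. Leaving out any 1 of the 4 libraries left fewer rises and falls in H3K27ac and fewer falls in H3K4me1. Calls over all genes fell as well in both marks. Sytl3, an effector of Rab27, had 2.89 ± 0.950 kb of H3K27ac in neutrophils and none in WT HSPC (adjusted p = 0.000841). Lrrk2, the kinase that phosphorylates several Rabs, was higher in all 3 marks, with 3.38 ± 0.220 against 0.619 ± 0.0672 kb of H3K27ac (1.80; adjusted p = 0.00527), 21 ± 2.83 against 6 kb of H3K4me1 and 5 against 1.5 ± 0.707 kb of H3K4me3. Tbc1d1, an activating protein for Rab10, rose by 2.17 (8.2 ± 0.771 against 1.43 ± 0.168 kb). The Rab27 effector genes Sytl2, Sytl4 and Mlph lost H3K4me1 (1 against 7 kb, 0 against 3 kb and 1 against 6 kb), and Sytl4 and Sytl5 had no H3K4me3 in neutrophils against 1 kb in WT HSPC. Rab3il1 and Tbc1d12 had no H3K27ac in neutrophils against 1.64 ± 0.286 and 1.15 ± 0.0247 kb.

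In DM the regulator list had 12 rises and 3 falls in H3K27ac (6.94% higher and 6.04% lower of all genes), 2 and 19 in H3K4me1 (1.91% and 16.2%) and 6 and 4 in H3K4me3 (4.47% and 3.7%). Without DM replicate 1 most H3K27ac calls were falls, beside an all-gene median of -0.07. Fewer H3K27ac calls were left without either WT HSPC library, in the list and over all genes. For H3K4me1 the falls were fewer without any 1 of the DM or WT HSPC libraries, in the list and over all genes. Falls still outnumbered rises. Centring gave 17 higher and 9 lower for H3K27ac, 6 and 9 for H3K4me1 and 3 and 2 for H3K4me3. All genes were then 11.4% higher and 11.2% lower, 5.91% and 8.29%, and 2.15% and 2.73%, in the same order of marks. Sytl3 had 1.73 ± 0.170 kb of H3K27ac in DM and none in WT HSPC (adjusted p = 0.00689). Plekhm1, an effector of Rab7, rose by 1.45 (4.10 ± 1.53 against 1.14 ± 0.0601 kb), and Rabggtb, a subunit of the enzyme that attaches the lipid anchor to Rabs, fell by 0.90 (1.39 ± 0.429 against 2.97 ± 0.0297 kb). Dennd1a, an exchange factor for Rab35, fell to 22 kb of H3K4me1 in DM against 61.5 ± 0.707 kb in WT HSPC (-1.46; adjusted p = 1.51e-06), and Rabgef1, an exchange factor for Rab5, to 5.5 ± 0.707 against 17 ± 1.41 kb (-1.55). In Npm1c 16 of 87 regulators rose and 0 fell in H3K27ac, close to the 17.7% of all genes that were higher. With each library centred 1 rise was left, beside 0.763% of all genes higher. Fewer rises were left without any 1 of the Npm1c or WT HSPC libraries, in the list and over all genes. Among the 16 were Sytl3 (2.53 ± 1.34 kb, none in WT HSPC), Tbc1d16 (1.04 ± 0.512 kb, none in WT HSPC) and Gapvd1, an exchange factor for Rab5 (1.11; 4.71 ± 1.47 against 1.87 ± 0.0431 kb). Flt3-ITD had 0 H3K27ac calls in the list, 2 falls in H3K4me1, at Eea1, a Rab5 effector, and Dennd1a, and 2 rises in H3K4me3 (1.7% and 2.73% of all genes passed in either direction).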

How the data were processed

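ChIP-seq peak coordinates of 30 libraries (5 groups, 3 marks, 2 libraries each) were used as deposited, and the 5 inputs were left out. Alignment was to mm10 by Bowtie2 2.1.0 with Picard as a further tool, and HOMER (H3K4me1, H3K4me3) and MACS2 (H3K27ac) called peaks per library, per the submitters' processing notes and the names of the deposited lists. The sources used here do not state the versions of those 3 tools, the thresholds or how input was used. The deposited unit is other: peak start and end, with no score or count, so no interval or detection floor was computed.

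Covered bp per gene window were summed with Python 3.11.15, NumPy 2.4.6 and pandas 2.3.3 over gene spans of RefSeq GRCm38.p6, and log2(bp + 500) was fitted over 5 groups with limma 3.58.1 in R 4.3.3 for genes covered in at least 2 of 10 libraries, without scaling between libraries. The fit was tested on simulated data. Of 100 genes shifted by 2 log2 units in DM against WT HSPC, 86 (H3K27ac), 75 (H3K4me1) and 75 (H3K4me3) were recovered. With a shift of 3 log2 units the numbers were 99, 85 and 94 of 100. False calls numbered 8, 20 and 6, in the same order of marks. The p-values set each difference against 1 estimate of the spread between libraries, pooled over the 5 groups of a mark. They therefore also depend on groups outside a comparison. Peaks of a mark were merged into regions, counted as gained when in both libraries of a group and neither WT HSPC library, by 1 bp of overlap. Figures were drawn with matplotlib 3.10.9.

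Members, gene lists and tests were chosen with earlier results of these data known. Named Rab genes were all those called in a mark and comparison with 4 same-sign differences between single libraries if there were up to 10, otherwise the 5 largest rises and 5 largest falls, plus 15 members with granule, platelet or phagosome roles; other called members were named for completeness after their values were seen. Regulators were the 3 largest rises and falls, of which a part is printed. All 4 comparisons share the WT HSPC libraries. Alternatives were centring, a pseudocount of 2000 bp, genes covered in at least 1 library, the gene span without extension, equal list lengths, a replicate block, leaving out each library and, chosen after seeing the data, calls of at least 500 bp. Of 9 planned cell type marker lists, 7 are given for H3K27ac and 2 are not reported here.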

Additional observations from a re-analysis of the deposited data

Results flagged for a closer look

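At 15 Rab genes, in at least 1 mark, the effect of Flt3-ITD on top of Npm1c passed as different from its effect in WT cells. This was tested as an interaction (DM - Npm1c - Flt3-ITD + WT HSPC, log2 scale, limma, Benjamini-Hochberg adjusted over all genes), and 17 such differences passed over the 3 marks. All genes tested were 17.5% negative and 0.462% positive for H3K27ac, 2.48% and 0.869% for H3K4me1 and 3.78% and 1.96% for H3K4me3. Most of the H3K27ac calls at Rab genes ended with centring, and all of them ended without either WT HSPC library. Calls over all genes fell as well in each case.

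For H3K27ac the 10 differences were all negative. Rab4a had -2.39 (adjusted p = 0.026), from separate differences to WT HSPC of 1.19 in Npm1c, -0.33 in Flt3-ITD and -1.54 in DM. Rab38 had -2.38 (adjusted p = 0.0109), from 1.03, 0.30 and -1.05. Rab34 had -1.68 (adjusted p = 0.0126), from 0.97, 0.40 and -0.30, and Rab5c, an early endosome Rab, had -1.45 (adjusted p = 0.0331), from 0.75, -0.09 and -0.80. Rab42 had -0.98 (0.0265), Rab26 -0.96 (0.0137), Rab35 -0.93 (0.026), Rab13 -0.89 (0.0265), Rab2a -0.86 (0.041) and Rab40b -0.64 (0.0306), with the adjusted p in parentheses. The all-gene median of -0.46 lies in the same direction.

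For H3K4me1 Rab18 had -1.39 (adjusted p = 0.0234) and Rab6a -0.74 (0.0247). For H3K4me3 Rab10 had -1.40 (adjusted p = 0.00408), where Npm1c had 4 and 3 peaks, Flt3-ITD 2 and 2, DM 1 and 1 and WT HSPC 2 and 2. Rab18 had -1.22 (4.18e-13) and Rab6a -0.74 (1.1e-13), where both DM libraries had fewer peaks than all other HSPC libraries. Rab30 and Rab39 had 0.74 each (5.97e-15), where both DM libraries had 1 peak more than WT HSPC. The very small p-values come with the same number of 1 kb peaks in both libraries of every group, so that no spread was measured. Summed H3K27ac of 5 megakaryocyte markers was 9.66 to 12.3 kb in Npm1c, 3.05 to 5.78 kb in Flt3-ITD and 1.89 to 2.11 kb in DM, against 4.83 to 6.82 kb in WT HSPC. The part of these marker sums in the differences was not tested.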

How the results depend on the processing

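Of 93 Rab calls, 38 were kept in every setting, 39 without each library in turn and 23 in both. Over the gene span alone Rab33b H3K27ac in neutrophils changed to -0.073 and Rab34 H3K4me3 to 0.0; no other call changed sign. Centring kept 52 of the 93, and for H3K27ac left 0 calls in Npm1c (9 before), 1 in Flt3-ITD (0 before), 9 in DM (5 before) and 2 for the interaction (10 before); for H3K4me1 it left 1 interaction call (2 before), and for H3K4me3 2 calls in DM (7 before) and 0 for the interaction (5 before). Centring moved the all-gene medians of H3K4me3 to -0.27 in Npm1c, -0.31 in Flt3-ITD, 0.37 in neutrophils and 0.58 for the interaction. Equal list lengths left 4 H3K27ac calls in Npm1c, and a pseudocount of 2000 bp left 3 in DM. The gene span without extension gave 1 H3K4me1 interaction call, and for H3K4me3 1 call each in Npm1c and Flt3-ITD (0 before) and 8 for the interaction. Other gene counts moved by no more than 1.5 times. With a 500 bp minimum, H3K27ac regions gained and lost were 11 and 0 in Npm1c, 2 and 2 in Flt3-ITD, 5 and 7 in DM and 23 and 14 in neutrophils. Calls of at least 500 bp, an alternative chosen after seeing the data, left 15 of 16 H3K4me3 calls in neutrophils.

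Without each library in turn, H3K27ac calls fell in Npm1c and neutrophils and moved both ways in DM and for the interaction. This held at Rab genes and over all genes. H3K4me1 calls fell in DM and neutrophils, at Rab genes and over all genes. H3K4me3 calls at Rab genes fell in neutrophils and moved both ways in DM. Over all genes, H3K4me3 calls moved both ways in neutrophils and rose in DM. A lone library was then assumed to vary like the other groups. The all-gene median of the H3K27ac interaction moved as well, to -0.61 without DM replicate 1.

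With a replicate block, the H3K27ac count in Npm1c was 5 and the H3K4me1 interaction count 1; in neutrophils it was 18 for H3K27ac, 11 for H3K4me1 and 14 for H3K4me3, and in DM 4, 7 and 6. Same-numbered libraries correlated between -0.231 and 0.278 in their deviations, so the numbers are not known to pair the samples. Depth is unknown, so list size and peak width limit every value.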
